A study of Mus musculus with 13 samples.

Results

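Chemokine receptors are the membrane proteins through which leukocytes read chemokine gradients, and 9 of them were followed here across the immune cells of mouse lungs: Ccr1, Ccr2, Ccr7, Cx3cr1, Cxcr2, Cxcr3, Cxcr4, Cxcr5 and Cxcr6. The genes were taken by symbol from the gene list of a single-cell RNA count matrix, and all 9 were found among its 31053 genes, each under 1 identifier. The series compared an ovalbumin-induced asthma model, emphysema induced by porcine pancreatic elastase (PPE), recovery after PPE and a control in C57BL/6 mice, with whole lungs dissociated by proteases and, by the study's legend, 1 mouse sequenced per group. A further 9 samples by title, 3 each of acute injury, control and emphysema, share the tissue label lung; no age is given in the sources used here. The matrix numbers 7 libraries and does not tie them to any of the 13 labelled samples, so no model could be compared with the control, the matrix counts as a single unreplicated sample, and no test was made.

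Chemokine receptors are G protein-coupled receptors whose ligands, small secreted or membrane-bound proteins, direct cells between marrow, blood, lymph and tissue. CXCR2 and CCR1 are best known for drawing granulocytes into inflamed tissue, CCR2 for the release of monocytes from marrow, CX3CR1 for patrolling monocytes and resident macrophages, and CCR7 and CXCR5 for placing dendritic cells, T cells and B cells within lymphoid organs. CXCR3 and CXCR6 mark effector and tissue-dwelling lymphocytes, while CXCR4, the receptor for CXCL12, holds many leukocytes in marrow and tissue.

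Libraries 4, 5 and 6 stood apart from the other 4 before any receptor was looked at. Hemoglobin genes took 35.3 to 40.7% of their UMIs (unique molecular identifiers, each a counted RNA molecule) against at most 0.031% elsewhere, and the epithelial genes Sftpc and Scgb1a1 summed to at most 0.574 CPM (UMIs per 1000000 UMIs) against 8141 to 28830 CPM in libraries 1, 2, 3 and 7. Those 4 are called lung libraries below, and the markers of lung epithelium go against the label lung in the other 3. The lowest UMI count of a kept barcode was 304 to 501 in the lung libraries and 3439 to 5735 in libraries 4, 5 and 6, and cells of low UMI count were present in the former only. Of 37344 barcodes, 33618 had at most 10% mitochondrial UMIs and were kept, with a median of 5272 to 9114 UMIs per library. Of the kept barcode sequences, 123 occurred in more than 1 library.

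Leukocytes were clustered without the receptors followed here and without the other chemokine receptors and the ligands on fixed lists. The ligand list is not complete. Ligand genes outside it, such as Ccl22, Ccl24 and Ppbp, were not left out by name. Each cluster was named from marker lists, so "neutrophil-like" means cells in a cluster carrying neutrophil markers. There were 17757 such named leukocytes, 13227 of them in lung libraries, and 20 classes held at least 50 cells there. All markers of each class were found in at least 10% of its cells, except in eosinophil-like cells, where this held for 4 of 6. The Arg1 and Mmp12 macrophage-like name was weak for M2, the largest cluster of that class (1179 cells, 750 of library 2). Neither Arg1 nor Mmp12 was among its 10 leading genes. When all cells were clustered, library 2 had 97 cells in the cluster of that name and 1085 in the main alveolar macrophage-named one. The border between these classes was thus not firm. The level of a gene in a class is the median, over lung libraries with at least 20 cells of that class, of its CPM over the UMIs of these cells. Basophil or mast cell-like and plasmacytoid dendritic cell-like levels rest on 1 library, and eosinophil-like and regulatory T cell-like levels on 2.

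By GENCODE M21 on GRCm38, 5 of the 9 genes lie on chromosome 9: Cxcr6 (chr9:123806475-123811760, plus strand), Ccr1 (chr9:123962124-123968692, minus), Ccr2 (chr9:124101950-124113557, plus), Cx3cr1 (chr9:119901616-120069879, minus) and Cxcr5 (chr9:44511787-44561877, minus). Cxcr2 (chr1:74153989-74161246, plus) and Cxcr4 (chr1:128588199-128592293, minus) lie on chromosome 1, Ccr7 at chr11:99144196-99155077 and Cxcr3 at chrX:101731535-101734269, both on the minus strand. Cxcr6, Ccr1 and Ccr2 sit within 307 kb of each other and are led by 3 different cell classes, as described below. To set these neighbors beside the receptor with the broadest spread over classes, the 250 bases before the RefSeq start (GRCm38.p6) of Cxcr6 (chr9:123806227-123806476, plus), Ccr1 (chr9:123968693-123968942, minus) and Cxcr4 (chr1:128592300-128592549, minus) are shown, 5′ to 3′ on the gene's strand, with matches to the motifs searched in capitals.
Cxcr6: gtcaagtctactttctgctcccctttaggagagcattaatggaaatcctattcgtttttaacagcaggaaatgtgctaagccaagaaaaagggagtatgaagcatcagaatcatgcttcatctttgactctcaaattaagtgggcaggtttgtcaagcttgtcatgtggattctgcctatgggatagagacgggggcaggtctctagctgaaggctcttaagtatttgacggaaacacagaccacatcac
Ccr1: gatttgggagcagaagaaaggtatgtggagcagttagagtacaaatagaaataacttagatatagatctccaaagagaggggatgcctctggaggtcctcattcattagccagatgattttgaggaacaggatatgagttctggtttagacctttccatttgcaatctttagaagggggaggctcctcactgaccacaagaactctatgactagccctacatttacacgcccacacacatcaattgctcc
Cxcr4: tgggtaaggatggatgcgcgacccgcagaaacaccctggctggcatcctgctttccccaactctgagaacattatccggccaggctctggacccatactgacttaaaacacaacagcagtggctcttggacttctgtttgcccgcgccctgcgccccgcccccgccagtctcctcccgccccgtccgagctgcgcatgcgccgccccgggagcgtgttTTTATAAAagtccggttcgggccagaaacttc
The capitals in Cxcr4 are TATAAA and an overlapping match of its reverse complement. Of the 9 genes, 7 had a promoter in the table (not Ccr7 and Cxcr5), and 4 motifs were searched on both strands. TATAAA was found in Cxcr4 only of the 7, against 12.4% of 32851 promoters, and GAGGAAG, a PU.1-type motif, in Cxcr3 only, against 10.6%. TTGCNNAA, a C/EBP-type motif held by 9.56% of promoters, and TGANTCA, the AP-1 motif held by 6.75%, were found in none of the 7.

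By median level each receptor was highest in a different class, with Ccr1 and Cxcr2 sharing one. Several of these leads were not firm. Cxcr3 stood at 101.3 CPM in CD4 T cell-like and 100.8 CPM in regulatory T cell-like cells, the former higher in 0 of 2 libraries holding both. The leads of Ccr2, Cx3cr1 and Cxcr4 were lost in at least 1 alternative processing. In 4 of 9 receptors, Ccr1, Ccr7, Cxcr2 and Cxcr5, the leading class was at least 2 times above the next. Among all 15699 genes compared in this way the share was 25.6%, and the 4 of 9 are to be read against that. The order of the classes is a description, as counts of cells from 1 matrix allow no test.

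**Figure D1:**
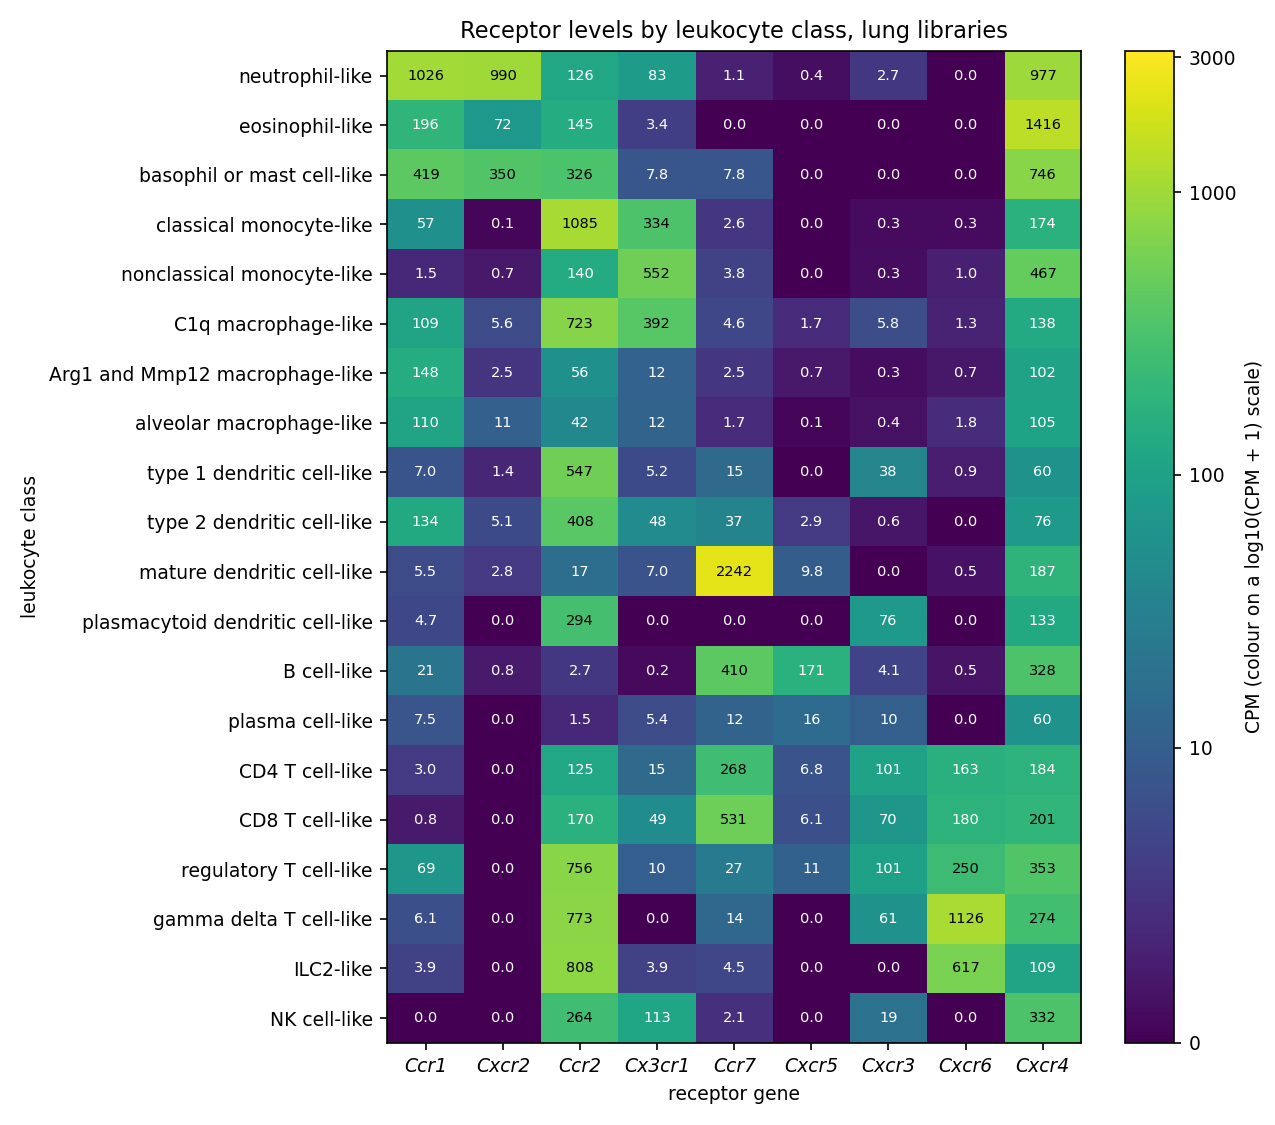
Level of each of the 9 receptors (columns) in each of the 20 leukocyte classes (rows), in CPM as the median over libraries 1, 2, 3 and 7; color follows log10(CPM + 1). Cxcr5 is bright in B cell-like cells alone (171 CPM), while Cxcr4 stays at or above 60.1 CPM in every class.

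Cxcr2 and Ccr1 belonged to neutrophil-like cells. Cxcr2, which binds the CXC chemokines that recruit neutrophils, measured 979, 921, 1002 and 2193 CPM in the neutrophil-like cells of libraries 1, 2, 3 and 7. In second place, basophil or mast cell-like cells had 349.5 CPM in the only library with enough of them, and 18 of 20 classes had less than 10% of the leading level. After every cell was thinned to 1000 UMIs, 989 of 1427 neutrophil-like cells (69.3%, exact 95% interval 66.8 to 71.7) still had a Cxcr2 UMI, against 1 of 1348 B cell-like cells, the class used here to show the share that free RNA can give. Unthinned, the shares were 91.7% and 0.441%. Intervals here and below cover counting error only, and cells are not replicates.

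Ccr1, a receptor for CCL3 and CCL5 among others, was less restricted than Cxcr2. It measured 866, 946.5, 1106 and 1406 CPM in neutrophil-like cells, 2.45 times the 419 CPM of basophil or mast cell-like cells. Below these came eosinophil-like cells, at 53.7 CPM in library 1 and 338 CPM in library 7. The library 1 value rests on 32 cells with 18619 UMIs in all, so its counting error is wide. Then came Arg1 and Mmp12 macrophage-like, type 2 dendritic cell-like, alveolar macrophage-like and C1q macrophage-like cells at 148, 134, 110 and 109 CPM. Of these, only the Arg1 and Mmp12 and the alveolar macrophage-like ranges were apart, 2 classes whose border was not firm, as given above. Thinned, 932 of 1427 neutrophil-like cells (65.3%) and 19 of 1348 B cell-like cells (1.41%) had a Ccr1 UMI, and unthinned 90.1% and 7.43%. Of the 170 Ccr1 UMIs of lung B cell-like cells, 145 were in the 380 lung cells of cluster M16. The 331 lung cells of cluster M1 held 6. For Ccr1 the B cell-like share therefore cannot be taken as that of free RNA. Within neutrophil-like cells, Ccr1 was found in 67.9% (64.8 to 70.8) of cells with a Cxcr2 UMI and 59.6% of those without, a gap of few points that shrank to 0.84 points at 500 UMIs.

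Ccr2 was found in several myeloid and lymphocyte classes, and 5 of 20 classes had less than 10% of its leading level, among them alveolar macrophage-like (42.4 CPM) and mature dendritic cell-like cells (17.3 CPM). In classical monocyte-like cells, the cells that need CCR2 to leave the marrow, it measured 962, 1186, 984.5 and 1433 CPM. ILC2-like cells (group 2 innate lymphoid cells) had 337, 1121 and 808 CPM in libraries 1, 2 and 7, γδ T cell-like cells 572, 773 and 852.5 CPM, and regulatory T cell-like cells 870 and 641 CPM in libraries 1 and 7. The ranges of classical monocyte-like and ILC2-like cells overlapped, although the monocyte-like value was the higher one in each of the 3 libraries that held both. C1q macrophage-like cells (531 to 944 CPM) came next, followed by type 1 and type 2 dendritic cell-like cells at 547 and 408 CPM, whose ranges were apart. Thinned, 660 of 1169 classical monocyte-like cells (56.5%) against 9 of 1348 B cell-like cells (0.668%) had a Ccr2 UMI. Without thinning the shares were 93.2% and 1.10%. The lead of classical monocyte-like cells was lost when cells were gated on marker UMIs without clusters, where the log2 ratio to the next class was -0.17.

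Cx3cr1, the receptor of CX3CL1, was highest in the monocyte-like classes and in C1q macrophage-like cells, and low in the other macrophage-like classes (12.1 CPM in alveolar macrophage-like cells). Nonclassical monocyte-like cells measured 553, 551, 472 and 560 CPM, C1q macrophage-like cells 375, 625, 410 and 320 CPM, and classical monocyte-like cells 342, 326, 325 and 353 CPM. The first 2 of these classes overlapped, with the nonclassical value higher in 3 of 4 libraries, and the lead was lost when chemokine genes were kept for clustering (log2 ratio -0.26). NK cell-like cells followed at 109 to 146 CPM, and 15 of 20 classes had less than 10% of the leading level. Thinned, 452 of 1137 nonclassical monocyte-like cells (39.8%) had a Cx3cr1 UMI, and 0 of 1348 B cell-like cells did. Unthinned, the shares were 87.6% and 0.147%.

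The C1q macrophage-like cells, which stood high for both receptors, were made of clusters with opposite balances. Cluster M15 (521 cells) had 699 CPM of Cx3cr1 and 513 of Ccr2, and cluster M27 (292 cells) had 172 CPM of Cx3cr1 and 1043 of Ccr2. The library ranges of the clusters were apart for both receptors, 590 to 816 against 78.9 to 216 CPM for Cx3cr1 and 235 to 780 against 884 to 1147 CPM for Ccr2. Neither gene had been used to form the clusters. Within classical monocyte-like cells Cx3cr1 was found in 30.9% (27.4 to 34.6) of cells with a Ccr2 UMI and 26.1% (22.4 to 30.2) of those without, intervals that overlap, and at 500 UMIs in 14.5% and 16.1%.

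Ccr7, which guides cells along CCL19 and CCL21 into lymph nodes, was led by mature dendritic cell-like cells by a wide margin. It measured 1840, 2643, 4267 and 1759 CPM there, and type 1 and type 2 dendritic cell-like cells had 15.4 and 36.6 CPM. CD8 T cell-like cells had 548, 502, 894 and 513.5 CPM, B cell-like cells 434.5, 385, 647 and 142 CPM, and CD4 T cell-like cells 149, 189, 463 and 346 CPM, none reaching the mature dendritic cell-like range. The CD8 range lay above the CD4 range and the B cell-like range overlapped both. Thinned, 158 of 213 mature dendritic cell-like cells (74.2%) had a Ccr7 UMI, against 3 of 1340 alveolar macrophage-like cells (0.224%), which were deeper at a median of 14944 UMIs. In unthinned cells these were 95.4% and 1.42%.

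Cxcr5, the B cell follicle receptor for CXCL13, was the most restricted of the 9. B cell-like cells measured 165, 141, 176 and 191 CPM in libraries 1, 2, 3 and 7 and 194 and 129 CPM in libraries 5 and 6. Plasma cell-like cells were next with 25.4, 3.58 and 15.8 CPM in libraries 1, 2 and 7, a ratio of 10.8, and 19 of 20 classes had less than 10% of the B cell-like level. Thinned, 231 of 1348 B cell-like cells (17.1%) and 0 of 1340 alveolar macrophage-like cells had a Cxcr5 UMI, which for the latter allows a share of up to 0.224%. Unthinned, the shares were 52.0% and 0.299%.

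B cell-like clusters differed in Ccr7 and Cxcr4 and hardly in Cxcr5. Cluster M12 (599 lung cells) had 838 CPM of Ccr7, 667 of Cxcr4 and 178 of Cxcr5, while cluster M16 (380 lung cells), led by Sox5, Fcrl5 and Zbtb32, had 141, 108.5 and 180 CPM. Library ranges were apart between them for Ccr7 (754 to 983 against 61.7 to 451 CPM) and Cxcr4 (554 to 952 against 64.5 to 281 CPM). Library 7, the lowest of the lung libraries in both Ccr7 and Cxcr4 over all B cell-like cells, had 167 of its 248 such cells in M16. In the same thinned cells, Ccr7 was found in 47.5% (42.4 to 52.5) of B cell-like cells with a Cxcr4 UMI and 31.7% (28.7 to 34.7) of those without, and the gap of 15.8 points fell to 5.25 points at 500 UMIs. By Cxcr5 the Ccr7 shares were 35.9 and 36.4%.

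Cxcr6 was found in T cell-like classes and ILC2-like cells, and Cxcr3 in T cell-like classes and some dendritic cell-like ones. Cxcr6, whose ligand CXCL16 is made by macrophages and dendritic cells, measured 1007, 1126 and 1254 CPM in the γδ T cell-like cells of libraries 1, 2 and 7. ILC2-like cells had 526, 668 and 617 CPM, below all of those values, and regulatory T cell-like cells 337 and 162 CPM. CD8 and CD4 T cell-like cells varied strongly between libraries, with 353, 69.0, 27.5 and 291 CPM in the former and 222, 104, 24.6 and 312.5 CPM in the latter, low in libraries 2 and 3 and high in 1 and 7. Their cluster mix varied too. Cluster L3, high in Cxcr6 as given below, held 43 of 81, 41 of 100, 10 of 108 and 29 of 49 CD8 T cell-like cells of libraries 1, 2, 3 and 7. Cluster L9, without Cxcr6, held 21 of 215, 22 of 126, 68 of 141 and 12 of 63 CD4 T cell-like cells. Mix and level did not run together throughout. Library 2 had only 69.0 CPM in CD8 T cell-like cells with 41 of 100 in L3. In CD4 T cell-like cells it had 104 CPM against 312.5 CPM in library 7, at a like share of L9. Within L3 Cxcr6 also varied between libraries, as given below. The part of the mix in these differences was not tested. NK cell-like cells of the lung libraries had no Cxcr6 UMI among 243 cells, which allows up to 2.89 CPM, and outside the T cell-like and ILC2-like classes no level exceeded 1.79 CPM. Thinned, 73 of 117 γδ T cell-like cells (62.4%, 53.0 to 71.2) and 1 of 1340 alveolar macrophage-like cells had a Cxcr6 UMI. The unthinned shares were 99.1% and 0.672%.

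Cxcr3, the receptor for CXCL9 and CXCL10, was found at lower counts and had no clear leader. CD4 T cell-like cells measured 98.4, 185, 104 and 65.2 CPM and regulatory T cell-like cells 104 and 97.4 CPM. CD8 T cell-like cells, at 107, 59.4, 10.7 and 80.4 CPM, overlapped both, and γδ T cell-like and plasmacytoid dendritic cell-like cells lay at 61.3 and 76.0 CPM. Type 1 dendritic cell-like cells held 26.2 to 60.8 CPM, while type 2 dendritic cell-like and mature dendritic cell-like cells had levels of 0.634 and 0 CPM. Among the CD4 T cell-like clusters, L8 was led by genes of dividing cells such as Ccna2, Birc5 and Cdk1. At a median of 15577 UMIs per cell it weighs more in the CD4 T cell-like levels than its cell number. Its 106 lung cells held 243 Cxcr3 UMIs (144 CPM). Thinned, 42 of 541 CD4 T cell-like cells (7.76%) and 0 of 1340 alveolar macrophage-like cells had a Cxcr3 UMI. Unthinned, the shares were 30.8% and 0.373%.

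Within the T cell-like classes, Ccr7 on one side and Cxcr6, Cxcr3 and Ccr2 on the other parted by cluster. Clusters L4 (CD8 T cell-like, 160 lung cells) and L9 (CD4 T cell-like, 123 lung cells) had 1088 and 1076 CPM of Ccr7, with Cxcr6 at 14.3 and 0 CPM and Ccr2 at 6.67 and 1.52 CPM. These clusters also carried the egress receptor gene S1pr1 (353 and 527 CPM). Cluster L3 (CD8 T cell-like, 123 lung cells) had the opposite set, with Ccr7 at 19.9 CPM, Cxcr6 at 433, Ccr2 at 455, Cxcr3 at 167 and Cx3cr1 at 165 CPM. Cluster L0 (CD4 T cell-like, 265 lung cells) had 302 CPM of Cxcr6, 164 of Cxcr3 and 69.9 of Ccr7. Over the libraries with at least 20 cells, Ccr7 ranged from 997 to 1340 CPM in L4 and from 8.92 to 42.6 CPM in L3, and Cxcr6 from 8.96 to 13.6 and from 166 to 660 CPM.

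**Figure D2:**
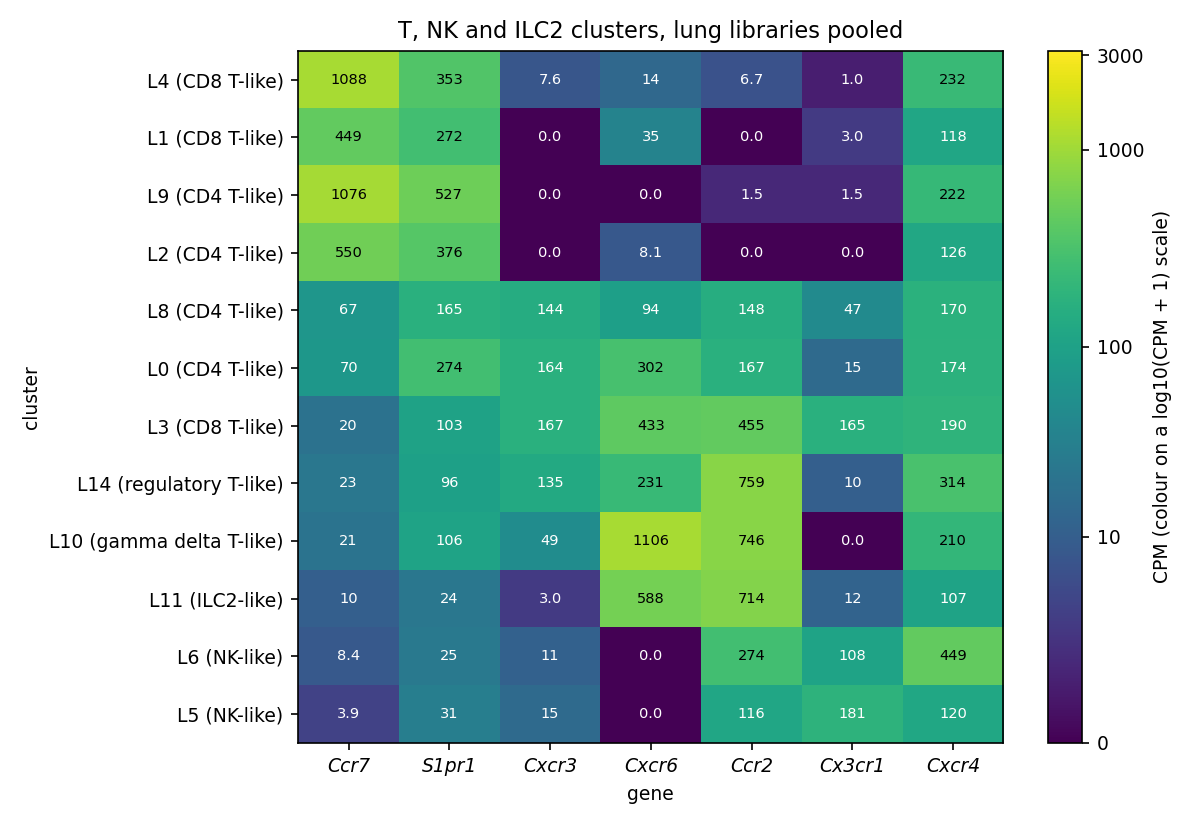
Level in CPM of 6 of the receptors with S1pr1 (columns) in 12 clusters of T cell-like, ILC2-like and NK cell-like cells (rows), over the pooled cells of libraries 1, 2, 3 and 7; color follows log10(CPM + 1). The 4 top rows have Ccr7 at 449 to 1088 CPM and Cxcr6 at no more than 35.4 CPM, and the γδ T cell-like row L10 has Cxcr6 at 1106 CPM.

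The same division was seen cell by cell. Among 1066 lung T cell-like cells thinned to 1000 UMIs, Cxcr6 was found in 9 of 232 cells with a Ccr7 UMI (3.88%, 1.79 to 7.24) and in 190 of 834 without (22.8%, 19.98 to 25.8). Cxcr3 was found in 1.72% and 8.63% of the same cells. This pool includes the γδ T cell-like cells, low in Ccr7 and high in Cxcr6. Within CD4 T cell-like cells the Cxcr6 shares with and without Ccr7 were 0.943% (0.0239 to 5.14) and 17.0% (13.6 to 20.9). Within CD8 T cell-like cells they were 3.36% (0.923 to 8.38) and 15.7% (11.2 to 21.3). Cxcr6 went with Ccr2 instead, in 83 of 188 cells with a Ccr2 UMI (44.2%, 36.9 to 51.6) against 13.2% of those without, a pooled figure that includes the γδ T cell-like cells, and the shares within CD4 T cell-like cells were 47.2% (33.3 to 61.4) and 10.3%. Cxcr4 was found in 16.8% of cells with Ccr7 and 15.7% of those without, and at 500 UMIs in 8.03% and 8.24%. Over the same pool, γδ T cell-like cells included, Cxcr6 was found in 18.4% (10.5 to 29.0) of cells with Cxcr3 and 18.7% of those without, and at 500 UMIs in 17.4% (7.82 to 31.4) and 9.65% (7.91 to 11.6), intervals that overlap. In the 440 T cell-like cells of libraries 4, 5 and 6 the Cxcr6 shares were 4.96% (1.84 to 10.5) with Ccr7 and 6.27% without, intervals that overlap.

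In the lung libraries, NK cell-like clusters L5 and L6 had neither Ccr7 above 8.40 CPM nor any Cxcr6 UMI. They differed in Cxcr4, at 449 CPM in L6 and 120 CPM in L5, and in Cx3cr1, at 108 and 181 CPM. L5 had at least 20 cells in only 1 lung library, so its spread is not known.

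Cxcr4 was the only one of the 9 above 10 CPM in every class, with levels from 60.1 CPM in plasma cell-like cells and 60.3 CPM in type 1 dendritic cell-like cells to 1416 CPM in eosinophil-like cells. Eosinophil-like cells measured 1128 CPM in library 1 and 1703 CPM in library 7, above the 986, 968, 957 and 1051 CPM of neutrophil-like cells. The library 1 value is close to these and rests on 32 cells with 18619 UMIs in all, so its counting error is wide. Basophil or mast cell-like cells had 746 CPM. Nonclassical monocyte-like cells followed at 325 to 602 CPM. The eosinophil-like cells were shallow, and 224 of 258 were left out at 1000 UMIs; of the remaining 34, 25 (73.5%, 55.6 to 87.1) had a Cxcr4 UMI, against 3 of 348 alveolar type 2-like epithelial cells (0.862%). Unthinned, the shares were 54.3% and 6.03%. At a clustering resolution of 1.0 the eosinophil-like level was 820.5 CPM and the lead was lost (log2 ratio -0.25).

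Across the 20 classes the levels of Ccr1 and Cxcr2 followed each other most closely among the 9 (Pearson's r = 0.784 on log levels), followed by Ccr7 and Cxcr5 (0.737), and Ccr2 and Cxcr5 ran opposite (-0.654). These values describe 20 classes that share libraries and depth. By the same measure over all genes compared, the closest to Cxcr2 was Acod1 (0.936), an enzyme gene of activated myeloid cells, the closest to Cxcr6 was Camk4 (0.978), a kinase gene of T cells, and the closest to Cxcr5 was Ebf1 (0.835), a B cell transcription factor. Phf21a was closest to Cxcr4 (0.926), Slc9a9 to Ccr2 (0.867), Xdh to Cx3cr1 (0.841), Hcar2 to Ccr1 (0.823), and Gm2237 and 1700097N02Rik to Ccr7 and Cxcr3 (0.872 and 0.853).

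The other chemokine receptors give the setting. Of 14 listed, 13 passed the limit of detection and 8 led one class at least 2 times, among them Ccr3 in eosinophil-like cells (1116 CPM), Ccr9 in plasmacytoid dendritic cell-like cells (1581 CPM), Xcr1 in type 1 dendritic cell-like cells (405 CPM) and Ccr4 in regulatory T cell-like cells (103 CPM). Of 21 ligands, 20 passed and 12 led one leukocyte class at least 2 times. Among all genes compared in this way the share was 25.6%, and the counts of each list here are to be read against that. Some counted leads were low and lay below a class outside the leukocytes. Examples are Cxcl12 (7.04 CPM in C1q macrophage-like cells), Cxcl5 (9.19 CPM in regulatory T cell-like cells) and Ackr3 (6.90 CPM in eosinophil-like cells). Cxcl16, the ligand of Cxcr6, was highest in mature dendritic cell-like cells (1022 CPM), the class with the highest Ccr7. Cxcl12, which binds Cxcr4, Ccl21a, which binds Ccr7, and Cx3cl1 were highest outside the leukocytes, in endothelial-like cells at 699, 886.5 and 36.6 CPM, and Cxcl2, which binds Cxcr2, in the neutrophil-like cells themselves at 8552 CPM. Of 13 trafficking genes and 10 receptor regulation genes, all passed, and 1 (Cd69) and 2 (Rgs1 and Rgs2) led one class at least 2 times, in each case the basophil or mast cell-like one.

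The lung libraries were next set beside libraries 4, 5 and 6. A receptor was called apart in a class when the library ranges did not overlap and the medians differed at least 2 times. Of 61 receptor and class pairs with counts enough, 11 were higher and 7 lower in the lung libraries. In neutrophil-like cells 1 of 8 receptors was higher and 0 lower (all genes: 4.23% and 4.44%), in classical monocyte-like cells 1 and 1 of 7 (3.45% and 4.06%), in nonclassical monocyte-like cells 1 and 1 of 5 (1.67% and 4.09%) and in type 2 dendritic cell-like cells 4 and 2 of 9 (9.28% and 5.16%). In B cell-like cells it was 1 and 1 of 7 (3.54% and 7.82%), in CD4 T cell-like cells 1 and 1 of 9 (5.03% and 5.38%), in CD8 T cell-like cells 1 and 0 of 8 (2.25% and 2.86%) and in NK cell-like cells 1 and 1 of 8 (2.41% and 7.74%). The sets also differ in hemoglobin, epithelial genes and lowest UMI count, as given above, and the effects of these cannot be told apart.

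Cxcr4 accounted for 7 of the 11 higher calls, being apart in each class compared except B cell-like cells. With cells gated on marker UMIs in place of clusters it was apart in 2 of 5 classes, and with a mitochondrial limit of 5% in 3 of 4. In neutrophil-like cells it measured 986, 968, 957 and 1051 CPM in libraries 1, 2, 3 and 7 and 99.2, 581 and 251 CPM in libraries 4, 5 and 6, a ratio of medians of 3.89. In NK cell-like cells the values were 429, 327, 337 and 317 against 85.3 and 29.5 CPM in libraries 5 and 6 (5.78). In nonclassical monocyte-like cells they were 602, 449, 485 and 325 against 79.4, 289 and 78.0 CPM (5.88). All lung values exceeded all others in these classes, and the ratios in CD4 T cell-like, CD8 T cell-like, classical monocyte-like and type 2 dendritic cell-like cells were 5.06, 4.20, 3.46 and 2.41. In B cell-like cells the values were 485, 253, 404 and 143 against 292 and 155 CPM, and the ranges overlapped. Of the B cell-like cells, 631 of 863 in library 6 and 230 of 1257 in library 5 were in cluster M5, whose leading genes were mostly those of platelets (Ppbp, Itga2b, Gp9) although all 5 B cell markers were present. Without M5 the values of libraries 5 and 6 were 286 and 155 CPM. Cluster M6, scored as B cells but left unnamed, held a further 71 and 723 cells of libraries 5 and 6.

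**Figure D3:**
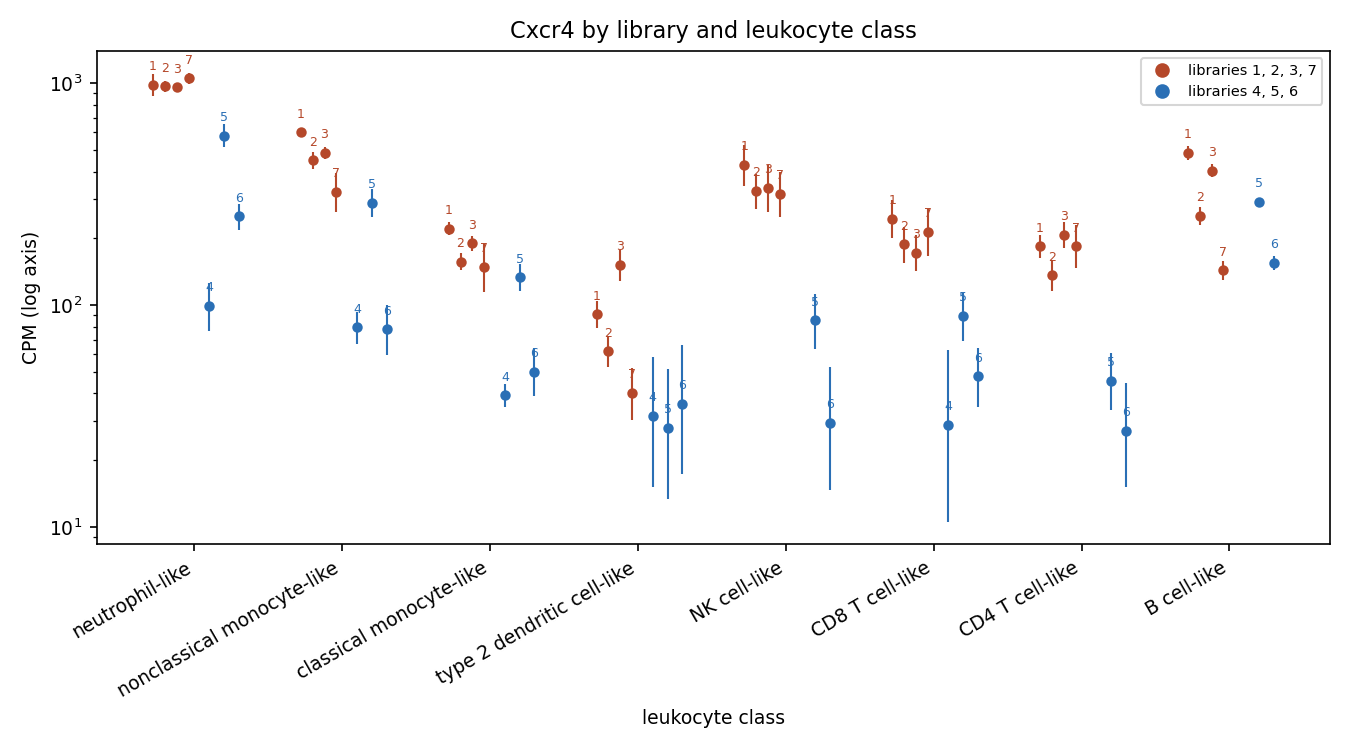
Cxcr4 in CPM (log axis) in 8 leukocyte classes, 1 point per library with its number and exact 95% counting interval; red, libraries 1, 2, 3 and 7; blue, libraries 4, 5 and 6. Red points lie above all blue points of libraries with at least 20 cells in each class except B cell-like cells, where 143 to 485 CPM overlaps 155 to 292 CPM.

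The classes were not filled by the same clusters on both sides, so the comparison was repeated within clusters. Neutrophil-like cells of the lung libraries came mostly from M0 (1352 cells), those of libraries 5 and 6 mostly from M30, and 47 of 54 in library 4 from M37, a cluster that also carried all 5 classical and all 7 nonclassical monocyte markers. In 16 clusters with at least 20 cells on each side, Cxcr4 over the pooled cells was above 1 in ratio in 14 and at least 2-fold higher in the lung libraries in 10, with a median of 2.68; it was at least 2-fold lower in 0. Over all genes, 4.74% of gene and cluster pairs with at least 20 UMIs were at least 2-fold higher and 7.36% at least 2-fold lower, a count of 0 being read as 3 and called only where that bound itself reached 2-fold. The share above 1 was not counted over all genes. In M0 the values were 1120 and 720 CPM (ratio 1.56, 1.27 to 1.92), the latter from 30 cells, all of library 5. M30 had fewer than 20 lung cells and could not be compared. In M4, classical monocyte-like, the values were 146 and 51.2 CPM (2.85, 2.45 to 3.31), and in L3 190 and 45.7 CPM (4.15, 2.58 to 7.03). The classes of largest ratio had smaller ratios within clusters. In the nonclassical monocyte-like M3 and M33 these were 2.51 (2.12 to 2.99) and 3.17 (2.41 to 4.18). In the NK cell-like L5 the values were 120 and 49.8 CPM (2.40, 1.36 to 4.31). L6, the NK cell-like cluster with the most lung cells, held 1 cell of library 5 and could not be compared. In the B cell-like M1 and M35 the ratios were 1.18 (1.06 to 1.305) and 1.76 (1.29 to 2.365). The exceptions were M16, B cell-like, at 108.5 and 160 CPM (0.678, 0.581 to 0.792), and M42, immature neutrophil-like, at 116 and 153 CPM (0.757, 0.454 to 1.20).

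**Figure D4:**
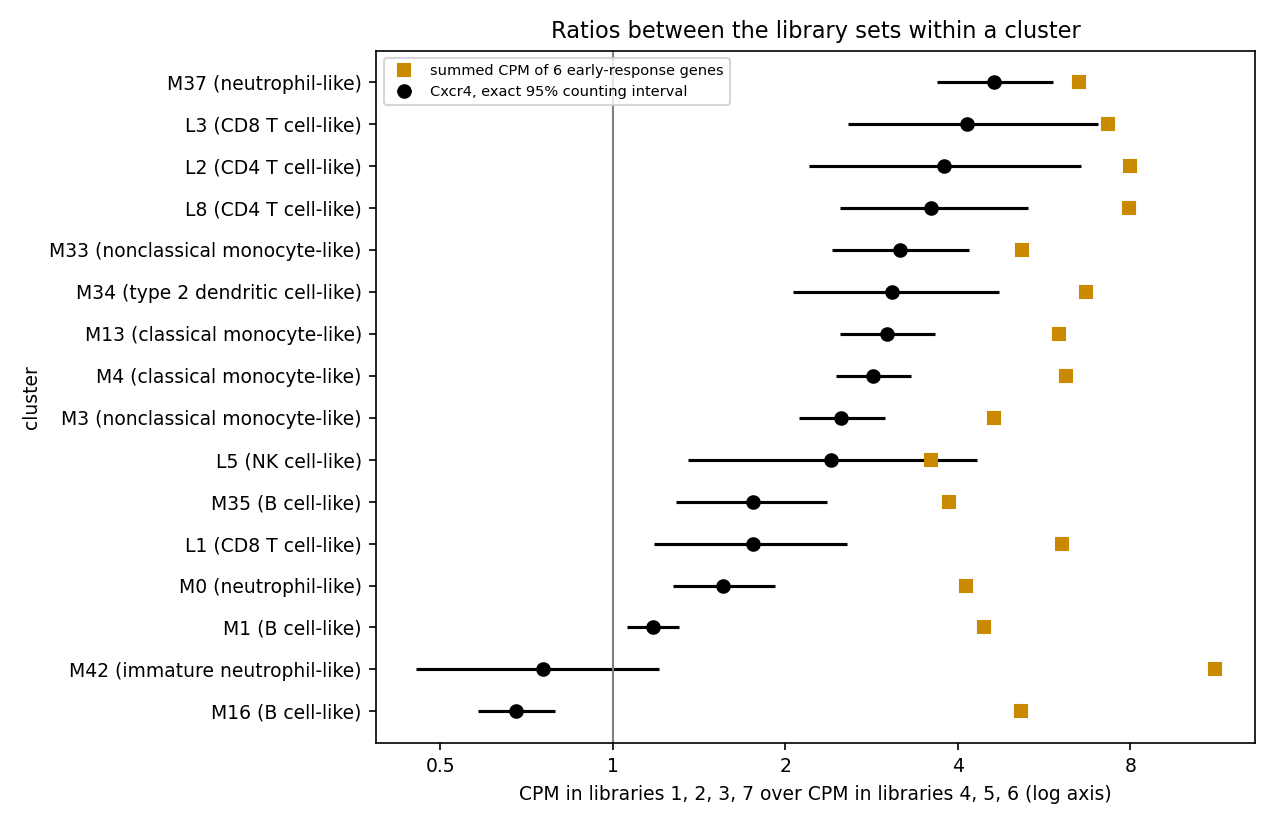
Ratio of CPM in libraries 1, 2, 3 and 7 to CPM in libraries 4, 5 and 6 (log axis) within 16 clusters, for Cxcr4 (black, exact 95% counting interval over pooled cells) and for the sum of 6 early-response genes (squares). Cxcr4 ratios run from 0.678 to 4.62, with M16 and M42 below 1, and the early-response ratios from 3.60 to 11.2.

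Early-response genes moved with the library set beside Cxcr4. The summed level of Fos, Jun, Junb, Egr1, Ier2 and Dusp1, a list chosen after the clusters were seen, was 15235 to 30020 CPM in the neutrophil-like cells of the lung libraries and 1308 to 4221 CPM in those of libraries 4, 5 and 6. In B cell-like cells, where Cxcr4 overlapped, it was 1582 to 2265 and 251 to 298 CPM. Within clusters the sum was 3.60 to 11.2 times higher in the lung libraries in all 16, M16 (5.16) and M42 (11.2) included. Its part in the Cxcr4 difference was not tested. Hemoglobin took 0.35 to 2.4% of UMIs in the leukocyte classes of libraries 4, 5 and 6. These shares are low partly because clusters with hemoglobin among their leading genes were named erythroid and left out. One of them, M24, held 153, 111 and 72 cells of libraries 4, 5 and 6. Its leading genes included Stfa2l1, also a leading gene of the neutrophil-like M30. When all cells were clustered, a neutrophil-named cluster held 153, 111 and 71 cells of these libraries. The neutrophil-like cells compared numbered 54, 98 and 174. Whether the cells left out would change the neutrophil-like values was not tested. Leaving hemoglobin genes out of the totals left Cxcr4 apart in 7 of 8 classes. At such shares this could change the levels only slightly, so it cannot show whether hemoglobin content bears on Cxcr4.

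Ccr2 and Cx3cr1 went the other way in part of the myeloid cells. In type 2 dendritic cell-like cells Ccr2 measured 430, 379, 434 and 385 CPM in the lung libraries and 1331, 941 and 1401 CPM in libraries 4, 5 and 6, and Cx3cr1 27.2, 69.7, 87.1 and 26.6 against 304, 258 and 371 CPM. No values overlapped, and the medians were 3.27 and 6.28 times higher in libraries 4, 5 and 6. In those 3 libraries 78 of 80 such cells fell in cluster M34, and within M34 Ccr2 was 596 against 1218 CPM (0.489, 0.447 to 0.536) and Cx3cr1 117 against 315 CPM (0.371, 0.304 to 0.452). M34 carried 4 of 5 classical monocyte markers in at least 10% of cells, summing to 875 CPM in its lung cells and 1374 CPM in those of libraries 4, 5 and 6, against 273 CPM in the lung cells of M26, the main lung cluster of this class. Their part in the Ccr2 and Cx3cr1 differences was not tested.

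Type 2 dendritic cell-like cells also had the most calls in the opposite direction. Ccr1 was 95.6 to 233 CPM in the lung libraries against 6.34 to 36.0 CPM, and Ccr7 was 20.9 to 58.0 CPM against 0 UMIs in 80 cells, which allows up to 3.16 CPM. Within M34 Ccr1 was 52.2 against 17.4 CPM, and Ccr7 45.0 CPM against 0. Cxcr4 was 40.3 to 152 against 28.02 to 36.0 CPM, a narrow gap. Cxcr5 was apart too but lay at 0.407 to 4.08 CPM, near 0 on both sides.

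In monocyte-like cells Ccr2 was lower in the lung libraries in clusters M4, M13 and M33 and higher in M3. Classical monocyte-like cells had 962 to 1433 CPM in the lung libraries and 1699, 2050 and 1997 CPM in libraries 4, 5 and 6, ranges that did not overlap but differed less than 2 times. Within the classical monocyte-like M4 it was 1290 against 1836 CPM (0.703, 0.674 to 0.732), and within M13 987 against 1608 CPM (0.614, 0.584 to 0.645). Nonclassical monocyte-like cells had 107, 135, 145 and 225 CPM against 603, 275 and 412 CPM and were apart by 2.94 times. In library 4, 115 of the 201 nonclassical monocyte-like cells were in M33, a cluster with all 5 classical monocyte markers, where Ccr2 was 405 against 897 CPM, while in M3, which held most of the lung cells, Ccr2 was higher in the lung libraries at 101.5 against 60.2 CPM (1.69, 1.21 to 2.40). The M3 value of libraries 4, 5 and 6 rests on 38 Ccr2 UMIs in 87 cells. Over the 12 clusters with counts enough, monocyte-like or not, Ccr2 was at least 2-fold lower in the lung libraries in 6 and at least 2-fold higher in 0. Over all genes, the shares of gene and cluster pairs were 7.36% and 4.74%. The 6 were M33, M34, M37, M42, the NK cell-like L5 and the B cell-like M1. M1, of the class used above for free RNA, had 1 against 24 Ccr2 UMIs, with a ratio interval reaching 1.11. M42 had 0 Ccr2 UMIs in 22 lung cells. Cx3cr1 was below 1 in ratio in 9 of 9 clusters, at least 2-fold lower in 1, with a median of 0.732. In M4, M37 and L5 its intervals reached above 1, and the share of all genes below 1 was not counted.

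**Figure D5:**
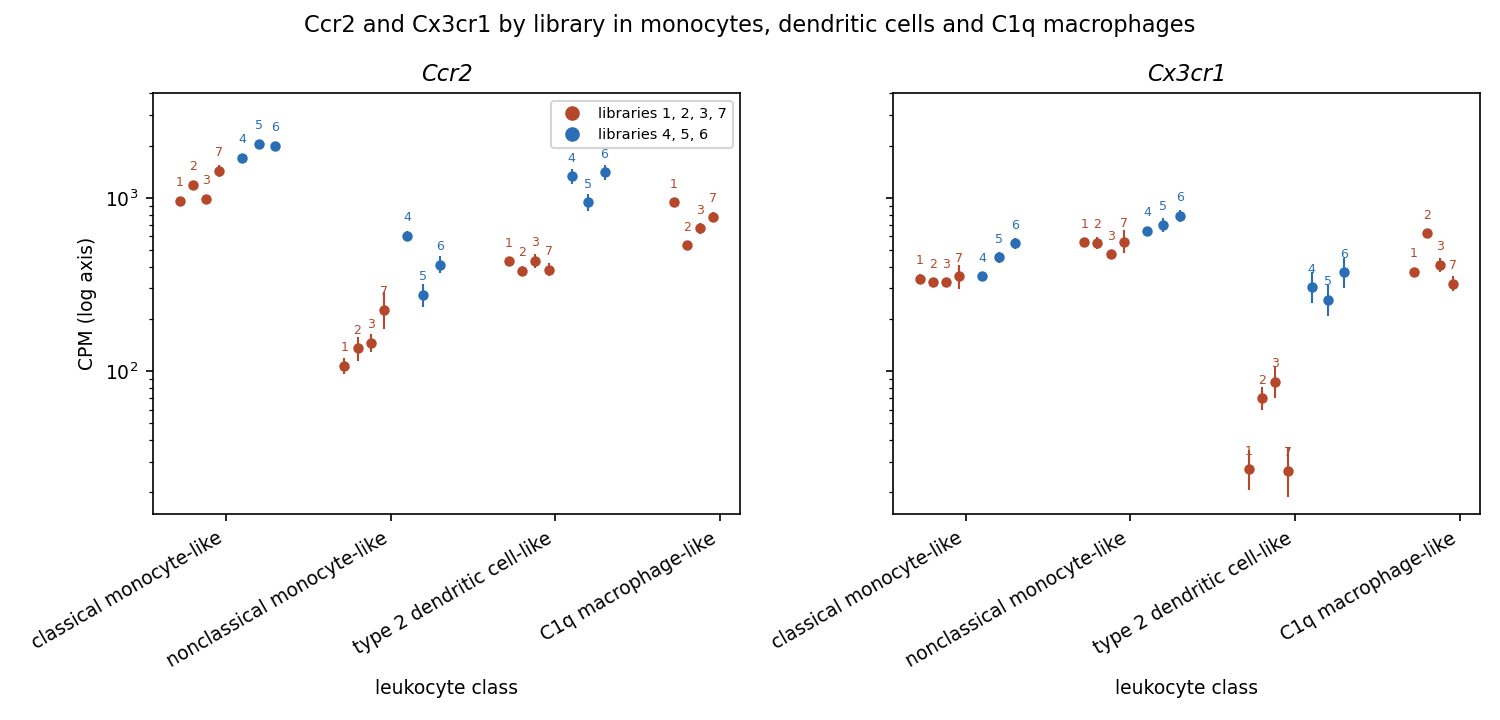
Ccr2 (left) and Cx3cr1 (right) in CPM (log axis) in 4 myeloid classes, 1 point per library with its number and exact 95% counting interval; red, libraries 1, 2, 3 and 7; blue, libraries 4, 5 and 6. In type 2 dendritic cell-like cells the blue points lie above the red for both genes, at 941 to 1401 against 379 to 434 CPM for Ccr2.

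Values of the remaining receptors follow. Cxcr2 in neutrophil-like cells was 499, 2004 and 1838 CPM in libraries 4, 5 and 6, 1 below the lung range of 921 to 2193 CPM and the others within it, and Ccr1 was 177, 843 and 851 CPM, all below the lung values but less than 2 times lower in median. Of the library 4 cells, 47 of 54 were in M37. Within M0 Cxcr2 was lower in the lung libraries, at 1521 against 2350 CPM (0.647, 0.578 to 0.726), the latter from 30 cells. Within M37 it was 374 against 457.5 CPM (0.817, 0.707 to 0.945). In M42, immature neutrophil-like, it was 463.5 against 423.6 CPM (1.09, 0.853 to 1.39). The Cxcr2 calls, lower in B cell-like, CD4 T cell-like, NK cell-like and classical monocyte-like cells, all lay at or below 8.05 CPM. Ccr7 was at least 2-fold higher in 5 of 9 clusters (all genes: 4.74% of gene and cluster pairs). Its ratio was above 1 in 9 of 9, with intervals reaching below 1 in M16, L1 and L2. The share of all genes above 1 was not counted. In the T cell-like clusters L1 and L2, however, it was 449 against 413 and 550 against 506 CPM. L4 and L9, given above as high in Ccr7, held 3 cells and 0 cells of library 5 and could not be compared. Over all CD8 T cell-like cells Ccr7 was 502 to 894 against 255 to 347 CPM. These ranges did not overlap, but the medians differed less than 2 times. In CD4 T cell-like cells the ranges overlapped. Of the 5, the monocyte-like M13 and M33 held only 29 against 3 and 34 against 11 Ccr7 UMIs. Over all classical monocyte-like cells, 0.598% of lung cells and 1.26% of those of libraries 4, 5 and 6 had a Ccr7 UMI. Cxcr6 was 433 against 171.5 CPM in L3 (2.53, 1.95 to 3.30) and 94.3 against 48.8 CPM in L8 (1.94, 1.33 to 2.89), and in L1 it was 35.4 against 57.5 CPM (0.616, 0.306 to 1.14). Of the 28 L8 cells of libraries 4, 5 and 6, 26 were of library 5. Counts allowed no other cluster for Cxcr6, and Cxcr3 and Cxcr5 could be compared in 3 clusters each, with medians of 1.06 and 0.805. The higher call of Cxcr3 in B cell-like cells lay at 2.38 to 7.08 against 0.189 to 1.43 CPM.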

How the data were processed

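The authors deposited a matrix of whole-number UMI counts, by gene and barcode, with no normalization after Cell Ranger 3.1.0, which the submitters' processing notes name with mm10 as the build. By the study's methods reads were aligned with STAR and down-sampled as required. The labels name version 3 of the Chromium kit and the supplementary methods version 2. Library totals over all barcodes ran from 29701569 to 79439569 UMIs. GENCODE M21 held 30934 of the identifiers, and promoters come from RefSeq.

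Barcodes with at most 10% mitochondrial UMIs were kept. Counts were scaled to a common total per cell and log-transformed, 2000 genes of highest dispersion without chemokine receptors and ligands gave 30 principal components, mutual nearest neighbors (k = 20, own implementation) aligned the libraries, and cells were clustered by the Leiden method at resolutions of 0.8 (all cells) and 2.0 (leukocytes, then T cells, NK cells and innate lymphoid cells), giving 56, 60 and 19 clusters. Clusters took a name from fixed marker lists when at least 3 markers were found in 10% of cells and no other class had more among the 10 leading genes, a rule adjusted after a first look at the clusters. Unnamed cells numbered 3280, of which 1043 scored as B cells. Doublets were kept. Scrublet (scanpy 1.11.5) called 744 cells, 2.21%, but only 0, 15 and 1 in libraries 4, 5 and 6, where it cannot be taken to have worked.

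The members, lists and the split of the libraries were chosen with earlier results of these data known. The genes named are the 9 receptors and, from fixed lists, the receptors, ligands and trafficking genes that lead a class. Likeness between genes is Pearson's r on log levels over classes. Levels needed 20 cells of a class in a library and classes 50 cells. Genes compared between classes or library sets passed a detection limit in 1% of cells. Intervals are exact at 95% and cover counting error only, and a count of 0 allows up to 3 counts. The scripts were tested on simulated data. Python 3.11.15, numpy 2.4.6, scipy 1.17.1, pandas 2.3.3, leidenalg 0.10.2, igraph 0.11.9 and matplotlib 3.10.9 were used. Alternatives changed the cell filter, doublets, clustering, alignment, pooling, gating, minimum cell number and each library in turn.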

Additional observations from a re-analysis of the deposited data

How the results depend on the processing

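The number of receptors at least 2 times above the next class was 4, and 4 to 5 under every alternative run. The 18 receptor and class pairs apart between the library sets became 11 with at least 50 cells per library, 7 of 40 pairs with cells gated on marker UMIs, and 6 of 25 with a mitochondrial limit of 5%, where fewer pairs could be compared. Leaving out each library in turn gave 13 to 21 pairs and left the first count at 4. Cxcr4, higher in 7 of 8 classes, was higher in 2 of 5 with gating and in 3 of 4 at 5%, and in 5 to 7 with each library left out; the cause was not tested. Other alternatives gave 15 to 20 pairs and 5 to 7 classes for Cxcr4. Of alternatives chosen after the data were seen, leaving out clusters M33 and M37, which carry markers of more than 1 myeloid class, gave 17 pairs and 7 classes, leaving out M5 gave 18 and 7, and leaving out hemoglobin genes 19 and 7. Leading levels moved by no more than the standard deviation between lung libraries in 173 of 182 cases. The exceptions were Ccr2 and Cx3cr1 with gating (642 and 421.7 CPM), Cxcr4 and Cxcr5 at 5% (1846 and 112.4 CPM), Cxcr4 at resolution 1.0 (820.5 CPM), Cxcr6 with chemokine genes kept for clustering (865.4 CPM) or Scrublet calls left out (889 CPM), and Ccr1 with 15 components (1310 CPM) or without M33 and M37 (1318 CPM). The lead of Ccr2, Cx3cr1, Cxcr3 and Cxcr4 was lost in at least 1 alternative, with lowest log2 ratios of -0.17, -0.26, -1.01 and -0.25. At 500 UMIs all 9 shares were lower, as fewer UMIs are counted, and of 45 paired shares 10 changed in whether the intervals were apart. In 9 of the 45 the gap changed sign, none of them with intervals apart at 1000 UMIs. No paired analysis was possible because the libraries carry no sample label. At 1000 UMIs, 224 of the 258 eosinophil-like cells behind the Cxcr4 share were too shallow to be used.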

Other observations

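Immature neutrophil-like cells, with 90 of their cells in library 4, had 399 CPM of Cxcr2, 173 of Ccr1 and 147 of Cxcr4 in that library, the only one with at least 20 of them. The ligands Ccl3 and Ccl4 reached 12807 and 20224 CPM in the basophil or mast cell-like cells of 1 library, and Ccl5 reached 19816 CPM in NK cell-like cells.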
